A study of Rattus norvegicus with 108 samples.

Results

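Microglia2 is one of the 12 cell types in the authors' annotation of the rat dorsal dentate gyrus (dorDG), and its members are the cells whose final subtype label reads Microglia2. These were 103 of 1289 annotated cells (7.99%), beside 107 cells of the sister subtype Microglia1. The tissue came from male Long-Evans rats, 2 months old when treatment began, that drank fluoxetine, a serotonin reuptake inhibitor, at 18 mg/kg (FT) or plain water (Sham) for 6 weeks. Profiles were collected by droplet capture of 3′ RNA ends with unique molecular identifiers (UMIs), each UMI standing for 1 captured transcript. Each replicate was a pool of tissue from several animals. The labels describe nuclei, whereas the study's methods describe whole-cell and nuclear suspensions, and neither says which reaction held which. FT had 4 replicates, numbered 1, 2, 4 and 5 (replicate 3 is not analysed here), and Sham had 5. The p-values below set differences between the groups against the spread between these pools.

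Microglia are the resident macrophages of the brain parenchyma. They depend on signalling through the Csf1r receptor, survey the tissue with purine and fractalkine receptors, tag and engulf debris and synapses with complement and lysosomal enzymes, and release chemokines and interleukins when disturbed. Tissue dissociation alone is known to switch on chemokine and immediate early genes in these cells.

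The FT replicates held 18, 17, 11 and 12 Microglia2 cells, and the Sham replicates held 14, 7, 11, 7 and 6, in replicate order. A Microglia2 cell had a median of 1925 UMIs and 952 genes, against 6669 UMIs and 2237 genes in Microglia1. Summed UMIs ranged from 31149 to 81967 per FT replicate and from 10603 to 48333 per Sham replicate. Of the 103 cells, 53 had under 1000 genes, compared with 8 of Microglia1. Levels are given as UMIs per 10000, computed on the summed cells of a replicate and averaged over the 9 replicates. Barcodes appeared in more than 1 reaction 3 times in the table, and 0 Microglia2 cells carried one. Sham 3 and Sham 4 stood apart: the median Microglia2 cell there had 1.20% and 1.16% of its UMIs from ribosomal protein genes, compared with 5.20% to 10.9% in the other 7 replicates. Results that rest on them are given with and without them.

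The defining microglial transcripts were present. Ctss, a lysosomal protease, was the highest at 94.5 ± 26 UMIs per 10000 (SD, n = 9). C1qb and C1qa, subunits of the complement initiator C1q, reached 33.2 ± 11.4 and 30.1 ± 11.4. Aif1, the calcium-binding protein IBA1, reached 12.2 ± 3.92, and Csf1r, the receptor for the growth factors Csf1 and Il34, reached 12.1 ± 3.98. In no other type but Microglia1 did any of these 5 genes exceed 3.2. The label therefore matched its markers. Because the types were clustered on these genes, levels between types are a description without a test.

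Sequences upstream of 3 genes are shown because they stand for the programs that the subtypes shared and did not share: C1qb and Ctss were at like levels in both subtypes, and the chemokine gene Cxcl2 was lower in Microglia2. The letters are from RefSeq, assembly GRCr8, and run 5′ to 3′ over the 250 bases before each transcription start. They cover chr5:154407828-154408077 on the minus strand for C1qb, chr2:185775146-185775395 on the plus strand for Ctss and chr14:17467256-17467505 on the minus strand for Cxcl2. Capitals mark letters of AGGAAGT, a core bound by PU.1 and related ETS factors, or of GGNNTTTCC, a form of the NF-kB site, on either strand.

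C1qb: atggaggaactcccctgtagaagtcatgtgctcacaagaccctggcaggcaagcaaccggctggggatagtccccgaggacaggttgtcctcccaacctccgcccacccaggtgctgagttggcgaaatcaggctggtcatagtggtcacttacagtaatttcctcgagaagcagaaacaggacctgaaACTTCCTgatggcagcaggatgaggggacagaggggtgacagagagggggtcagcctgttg

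Ctss: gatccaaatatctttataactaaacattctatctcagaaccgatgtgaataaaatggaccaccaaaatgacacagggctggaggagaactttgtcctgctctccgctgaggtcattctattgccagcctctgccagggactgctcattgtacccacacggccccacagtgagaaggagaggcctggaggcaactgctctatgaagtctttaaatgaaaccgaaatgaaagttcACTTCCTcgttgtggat

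Cxcl2: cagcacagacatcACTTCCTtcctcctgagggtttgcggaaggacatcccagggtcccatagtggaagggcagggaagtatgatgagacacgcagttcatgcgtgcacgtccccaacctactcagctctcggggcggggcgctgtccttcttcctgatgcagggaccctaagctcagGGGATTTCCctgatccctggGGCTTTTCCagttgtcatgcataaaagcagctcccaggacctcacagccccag

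AGGAAGT matched at -61 in C1qb, at -17 in Ctss and at -237 in Cxcl2, counted from the start site. GGNNTTTCC matched at -73 and -53 in Cxcl2. The motifs did not overlap. Of 33469 rat promoter windows of this length, 7.08% held AGGAAGT, 5.19% held GGNNTTTCC and 6.34% held TGANTCA, the AP-1 site. Of the 15 genes lowest in Microglia2 against Microglia1, described further on, 13 had a window, of which 2, 1 and 4 held these motifs in that order. Of the 15 highest, 11 had a window, of which 1, 1 and 0 did. Of the 15 genes that led Microglia2 over the 10 other types, 10 had a window, of which 3, 3 and 1 did. These set counts are of genes with a match in any of their windows, whereas the percentages are of windows, so the measures differ. A match is a description of letters and not a bound site.

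Microglia2 carried the microglial list and little of any other immune list. The 27 microglial markers summed to 267 ± 72.2 UMIs per 10000 in Microglia2 (range 156 to 337 over replicates) and to 262 ± 23.6 in Microglia1. In the other 10 types they summed to between 6.39 and 9.20. All 27 markers had at least 1 UMI in Microglia2, and 17 of 27 were higher than in Microglia1. Thinned to 1000 UMIs per cell, which left out 16 of 103 Microglia2 and 3 of 107 Microglia1 cells, a Ctss UMI was found in 95.4% and 98.1% of cells. Without thinning the shares were 93.2% and 98.1%. For C1qb the thinned shares were 88.5% and 92.3%, for Aif1 62.1% and 66.3%, and for Csf1r 64.4% and 65.4%. The highest thinned share in another type, a gauge of free RNA and mixed droplets, was 22.4% for Ctss, 14.7% for C1qb, 9.09% for Aif1 and 4.4% for Csf1r.

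Several markers of unstimulated microglia, among them the purine receptors P2ry12 and P2ry13, were scarce in Microglia2. P2ry12, the ADP receptor that steers process movement, had 7 UMIs in all Microglia2 cells, and the related P2ry13 had 6. The selectin ligand gene Selplg had 2 and Olfml3 had 1. Tmem119, a membrane protein of mature microglia, was at 3.31 ± 2.19 in Microglia2 against 0.97 in Microglia1, and was higher in 9 of 9 replicates. Cx3cr1, the fractalkine receptor, was at 1.08 ± 0.98 against 0.21, and was higher in 7 of 9.

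Markers of other leukocytes were at or near 0. Of 12 T and NK cell markers in the table, 10 had 0 UMIs in Microglia2, and the list summed to 0.83 UMIs per 10000. Of 7 neutrophil markers, 5 had 0 UMIs. Border macrophage markers, such as Mrc1, Cd163 and Lyve1, summed to 0.99, monocyte markers to 1.28, B cell markers to 0.61 and dendritic cell markers to 1.38, the last mostly from Siglech at 0.95. The same lists summed to 0.56, 0.02, 1.34, 1.75, 0.34 and 0.46 in Microglia1, in the order T and NK, neutrophil, border macrophage, monocyte, B and dendritic.

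Transcripts of other brain cells were present at the level that other types also showed. Oligodendrocyte markers summed to 70.2 UMIs per 10000, of which Mbp, a myelin protein gene, gave 50.3. In Microglia1 they summed to 66.8, and in the other 10 types to at least 42.6. After thinning, Mbp was found in 95.4% of Microglia2 cells and in at least 93.2% of cells of every other type. Neuronal markers summed to 4.74, astrocyte markers to 3.67, endothelial markers to 3.51 and mural markers to 0.66. UMIs of 3 or more oligodendrocyte markers were found in 73 of the 103 cells, and of 3 or more neuronal markers in 15. No doublet caller was run. The part of free RNA or doublets in the results below was not tested.

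**Figure D1:**
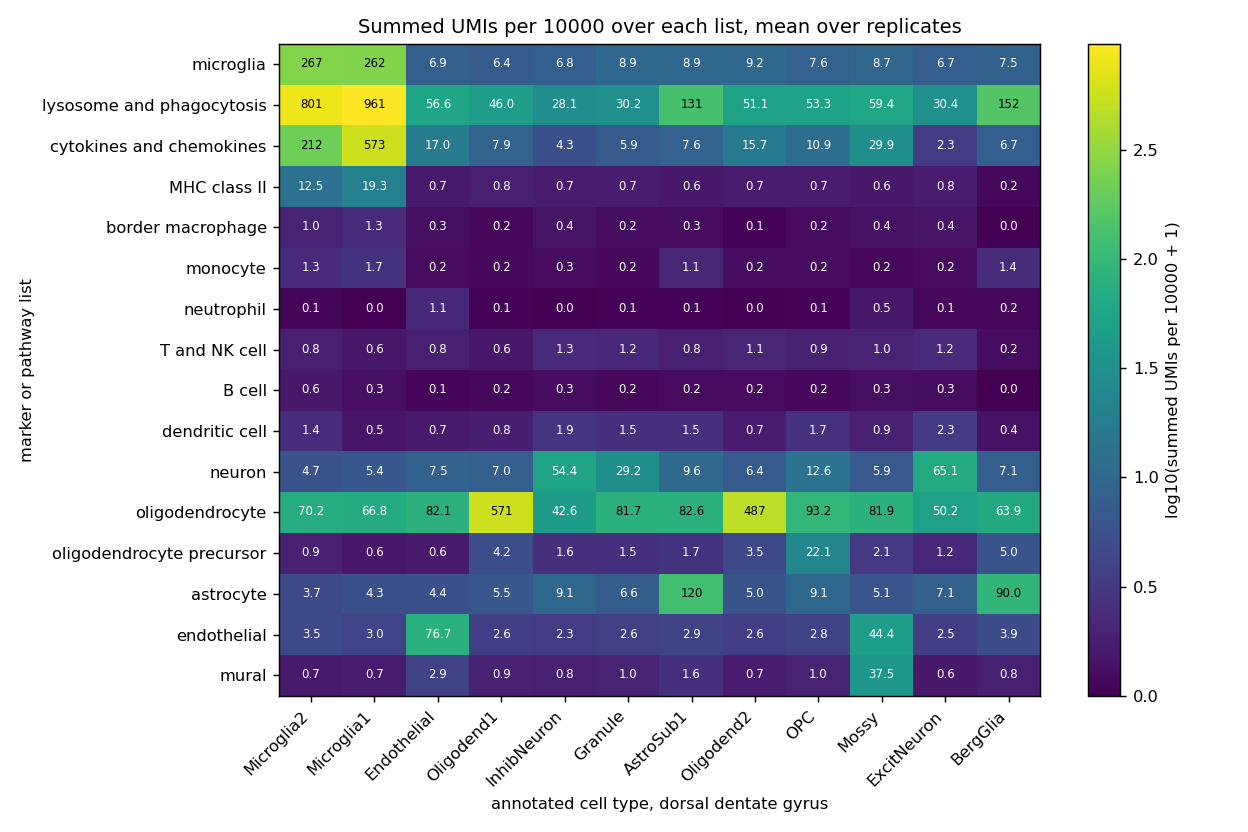
Heat map of summed UMIs per 10000 over the genes of 16 marker or pathway lists (rows) in the 12 dorDG types (columns), as the mean over replicates, with the value printed in each cell and colour on a log10 scale. The microglial row stands at 267 in Microglia2 and 262 in Microglia1 and between 6.39 and 9.20 elsewhere, and the rows of other leukocytes stay low in both.

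Against the highest of the 10 other types, the 15 genes that led Microglia2 (with a UMI in at least 25% of its cells) were Cd83, C1qa, Ctss, Fcgr2a.1, Lyc2.1, C1qb, Csf1r, Ltc4s, Aif1, Fcgr2a, C1qc, Ccl4, Laptm5, Cd74 and Tmem176a. Their log2 ratios ran from 5.22 for Cd83 down to 4.07 for Tmem176a. Cd83, a surface protein of activated antigen-presenting cells, was at 23.7 ± 11.6 UMIs per 10000. Fcgr2a and Fcgr2a.1 are 2 rows that carry the name of one Fc receptor gene, at 10.4 (lower than in Microglia1 in 9 of 9 replicates) and 5.56 (higher in 7 of 9), and Lyc2.1 is a lysozyme row. Whether reads were split between such rows was not tested. All 15 genes are known from macrophages.

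The subtypes parted most in chemokines, which draw leukocytes towards a site of injury. The 26 genes of the cytokine and chemokine list summed to 212 ± 113 UMIs per 10000 in Microglia2 and to 573 ± 208 in Microglia1, and the sum was lower in Microglia2 in 9 of 9 replicates. The list also held Nfkbia, Nfkbiz, Tnfaip3, Cd83 and Icam1, which are neither cytokines nor chemokines. Ccl7 was at 0.22 against 12.7 (log2 ratio -5.33) and Ccl2, the main chemokine for monocytes, at 1.16 against 28.1 (log2 ratio -4.49). In replicate order, Ccl2 was at 0.98, 0.59, 0.26 and 0.96 UMIs per 10000 in Microglia2 of FT and at 4.34, 0.43, 0.79, 0.00 and 2.07 in Sham. In Microglia1 it was at 33.8, 3.82, 29.9 and 46.4 in FT and at 23.3, 5.42, 60.9, 23.6 and 25.9 in Sham. Ccl2 was lower in Microglia2 than in Microglia1 in each of the 9 replicates.

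Ccl3 and Ccl4, which draw monocytes and T cells, were at 57.4 ± 44.9 and 56.2 ± 41.5 against 191 and 127. Cxcl2, a neutrophil attractant, was at 14.7 ± 9.33 against 62.7. Il1b and Il1a, the interleukin-1 cytokines, were at 9.01 ± 5.21 against 51.8 and at 4.34 ± 1.55 against 19.2. These 5 genes were each lower in 9 of 9 replicates. They were not absent: Ccl3 was found in 65.5% of thinned Microglia2 cells, against 91.3% of Microglia1 and at most 24.2% of another type.

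Other members of the list did not part in this way. Tnf was at 4.4 ± 2.09 against 6.5 and lower in 7 of 9 replicates. Nfkbia, the NF-kB inhibitor that NF-kB itself induces, was at 21.7 ± 10.1 against 17.6 and higher in 6 of 9. Cd83 was at 23.7 against 16.5 and higher in 5 of 9. Immediate early and heat shock genes summed to 88.7 ± 37.6 against 86.8 ± 22.1, with Fos at 7.36 against 3.84 and Ier3 at 8.05 against 15.1.

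The 15 genes lowest in Microglia2 against Microglia1 were Ccl7, Ccl2, Tnfsf18, Haus6, Nrp2, Gja5, Tm4sf19, Tnfrsf22, Rbm47, Tubb6, Cxcl10, DNAH17, Gbp2, Tnfrsf12a and Cdc42ep3, with log2 ratios from -5.33 to -2.51. Beside the chemokines, Tnfsf18 is the ligand of the costimulatory receptor GITR, at 0.13 against 3.07 UMIs per 10000. Cxcl10 and Gbp2 are interferon-inducible, at 0.55 against 4.98 and at 0.98 against 6.24. Gja5, a connexin, was at 0.22 against 3.23. Among genes outside the 15, the tetraspanins Cd63 and Cd9 were at 3.08 against 10.7 and at 1.24 against 2.82, each lower in 9 of 9 replicates.

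The 15 highest included Ssh2, Depdc5, P2rx7, Inpp5d, Abi3, Il6st, Gna15, Sall1, Cerk, Slc29a3, Ubr3, Man1c1, Susd3 and Nr4a1, with log2 ratios from 3.47 to 1.85. Ssh2, a phosphatase that activates cofilin, was at 6.15 ± 6.52 against 0.46. In replicate order it was at 2.32, 4.70, 2.61 and 1.61 in FT and at 1.66, 2.17, 20.4, 13.2 and 6.61 in Sham. Sham 3 and Sham 4 were thus the highest. Inpp5d, a lipid phosphatase that restrains Trem2 signalling, was at 6.12 ± 4.25 against 1.16, and Abi3, an actin regulator, at 2.5 ± 1.13 against 0.50. P2rx7, the ATP-gated channel, was at 1.81 ± 2.04 against 0.28, and Sall1, a transcription factor of microglial identity, at 2.19 ± 2.89 against 0.50. Ssh2, Inpp5d and P2rx7 were higher in 9 of 9 replicates, Abi3 in 8 and Sall1 in 6. Several of these means rested on Sham 3. Without it the Microglia2 mean moved more than 1.5-fold for 4 of the 15, to 1.15 ± 0.54 for P2rx7 (against 0.31 in Microglia1), 1.29 ± 1.07 for Sall1 (0.46), 1.24 ± 1.17 for Depdc5 (0.52) and 1.26 ± 1.13 for Ubr3 (0.49). Without Sham 3 and 4, Ssh2 was at 3.10 ± 1.87 against 0.49. In both settings all 15 log2 ratios stayed above 0, from 1.11 to 3.09 without Sham 3 and from 0.80 to 2.45 without both. Over all 2716 genes with a UMI in at least 25% of the cells of either subtype, the median log2 ratio was 0.05 and 1475 were higher in Microglia2.

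**Figure D2:**
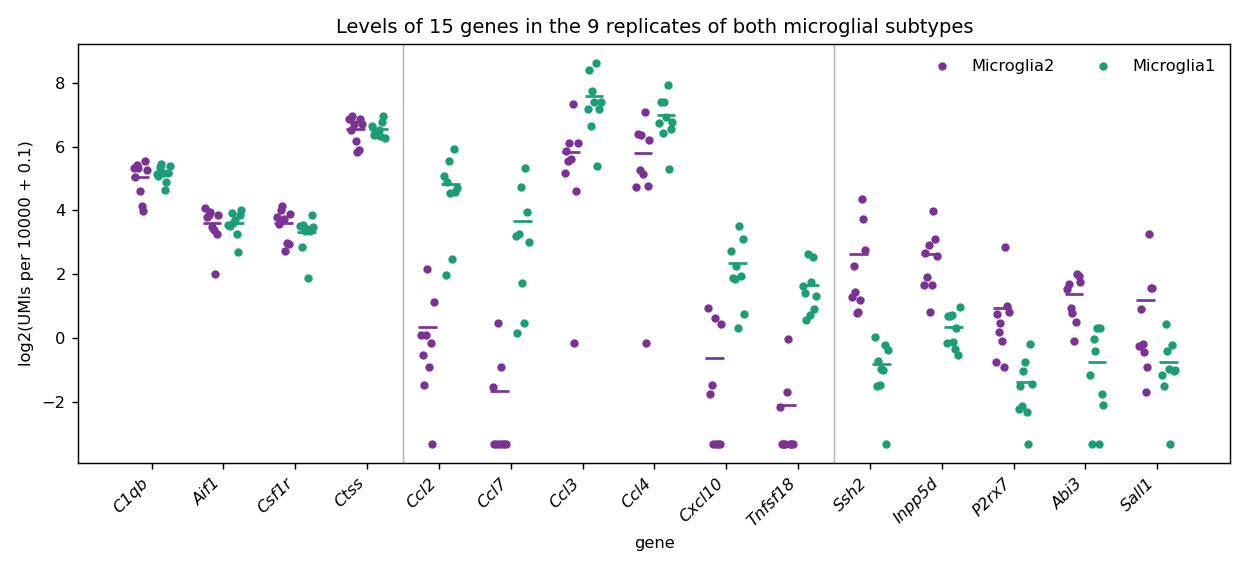
Levels of 15 genes as log2(UMIs per 10000 + 0.1) in Microglia2 (purple) and Microglia1 (green), with 1 point for each of the 9 replicates and a line at the mean of the replicates. C1qb, Aif1, Csf1r and Ctss overlap between the subtypes, Ccl2 and Ccl7 are lower in Microglia2 in 9 of 9 replicates, and Ssh2, Inpp5d and P2rx7 are higher in 9 of 9.

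The ranges of the lysosomal and antigen presentation lists over replicates overlapped between the subtypes. Within replicates, the lysosomal and class II sums were lower in Microglia2 in 6 of 9. The lysosome and phagocytosis list summed to 801 ± 252 UMIs per 10000 against 961 ± 122, of which Cst3, the protease inhibitor cystatin C, gave 553 against 724. Mertk, a receptor for dying cells, was at 5.78 ± 4.13 against 1.57 and higher in 8 of 9 replicates. Cd74, the class II invariant chain, was at 7.82 ± 5.51 against 15.7. Class I genes summed to 46.2 ± 16.7 against 62.0 ± 20.3 and were lower in 8 of 9 replicates. Interferon-inducible genes summed to 9.75 ± 2.32 against 14.8 ± 5.01 and were lower in 7 of 9. Of the genes raised in disease-associated microglia, Cst7, Lpl and Spp1 had 0 UMIs in Microglia2, and the list summed to 221 ± 80.3 against 260 ± 56.6, mainly from Apoe and Fth1. The serotonin transporter Slc6a4, the direct target of fluoxetine, had 0 UMIs in Microglia2.

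The 103 cells were not uniform. Plotted by depth and by the share of ribosomal protein UMIs, messages that lie mostly in the cytoplasm, they ran from 606 to 10918 UMIs and from 0.415% to 23.7%. Limits of 2% ribosomal UMIs and of 1500 and 3000 UMIs were set after these values were seen. They define ranges, not types. There were 23 ribosome-poor cells below 2% (median 1096 UMIs, 816 genes, 0.799% ribosomal), 30 shallow ribosome-rich cells of at most 1500 UMIs (median 1155 UMIs, 571 genes, 12.4% ribosomal), 10 between the limits and 40 deep cells above 3000 UMIs (median 5466 UMIs, 2249.5 genes, 7.54% ribosomal). Between 1.5% and 2.5% ribosomal UMIs lay 5 cells, and within 10% of either UMI limit 5 and 6 of the ribosome-rich cells.

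The ranges were spread unevenly over replicates. Of the 18 cells of Sham 3 and Sham 4, 12 were ribosome-poor, compared with 11 of the other 85, of which 7 came from FT 2. The ribosome-poor cells were also uneven over reactions. All 9 Microglia2 cells of second-named reactions (7 of FT 2, 1 of Sham 1 and 1 of Sham 2) were ribosome-poor, whereas the first-named reactions outside Sham 3 and 4 held 2 among 76 cells. The part of the reaction was not tested. Sham 3 held 0 deep cells and Sham 4 held 1. Pooled over replicates, ribosome-poor cells were 13.8% of Microglia2 in FT and 33.3% in Sham. They made up 9.35% of Microglia1, 50.9% of Oligodend1 and 79.6% to 80.0% of the 3 neuronal types InhibNeuron, Granule and ExcitNeuron.

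**Figure D3:**
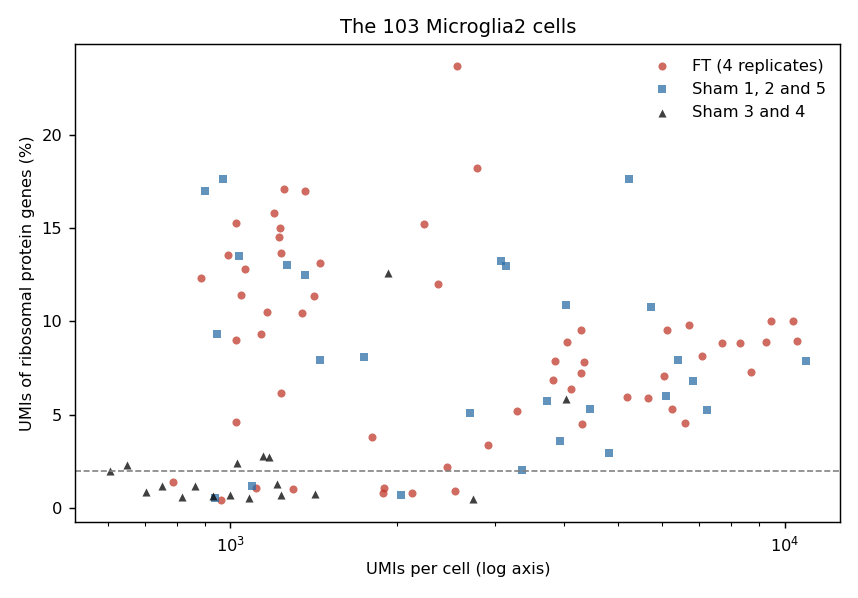
Each of the 103 Microglia2 cells by its UMIs (log axis) and the percent of them from ribosomal protein genes, coloured by FT (red circles), Sham 1, 2 and 5 (blue squares) and Sham 3 and 4 (black triangles), with a dashed line at 2%. Below the line lie 23 cells, 12 of them from Sham 3 and 4, and the deepest cells all lie above it.

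The ranges carried different shares of the microglial program. Markers summed to 157 UMIs per 10000 over the ribosome-poor cells, and to 288, 309 and 293 over shallow, middle and deep ribosome-rich cells. Each sum is over all cells of a range, so it weights replicates by their depth. Csf1r stood at 11, 9.64, 9.79 and 14.2 in that order, and Ctss at 53.9, 104, 107 and 103. Aif1 stood at 1.66, 19.6, 19.6 and 13.7. Ctss and Csf1r were thus measured in each range.

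The ribosome-poor cells of Microglia2 held few inducible transcripts. The cytokine and chemokine list summed to 7.66 UMIs per 10000 there, against 138, 246 and 240 in the other ranges and 611 in ribosome-rich Microglia1. Over the 10 ribosome-poor cells of Microglia1 this list summed to 215, and immediate early and heat shock genes to 38.8. Ccl4 and Tnf had 0 UMIs in the ribosome-poor Microglia2 cells, and Il1b stood at 0.33. Immediate early and heat shock genes summed to 6.33, against 55.8, 67.2 and 107, and lysosomal genes to 343, against 1066, 999 and 900. The list of myeloid transcription factors ran the other way in sum, at 26.3 against 6.72, 12.8 and 14.6. Mef2c, Mef2a, Ikzf1 and Sall1 gave most of it, at 8.32, 5.33, 5.33 and 4.99 in the ribosome-poor cells. Ikzf1 was at 0.29, 0.43 and 0.77 in the other ranges. Spi1, Fli1, Runx1 and Maf were lower in the ribosome-poor cells, at 0.33, 0.67, 0.33 and 0.00. Over all ribosome-rich cells these stood at 1.75, 1.41, 0.41 and 0.03. Ssh2 stood at 21.0 against 1.46, 0.85 and 2.44, Mertk at 11 against 2.34, 1.70 and 4.28, and Inpp5d at 12.3 against 1.75, 2.98 and 4.37. Markers of several other cell types were also higher in the ribosome-poor cells. Neuronal markers summed to 14.3 UMIs per 10000 against 1.75, 4.68 and 4.15, astrocyte markers to 6.99 against 3.80, 3.83 and 3.25, and endothelial markers to 6.33 against 2.34, 2.55 and 3.17. Oligodendrocyte markers summed to 80.9 against 76.3, 50.6 and 69.4, and oligodendrocyte precursor markers to 2.00 against 0.88, 0.43 and 0.90. Markers of T and NK cells, neutrophils, dendritic cells and mast cells were also highest there, at 2.00 or less. Those of border macrophages, monocytes, B cells, mural cells, fibroblasts, choroid plexus and red blood cells were not. The part of other cell types in the levels of the ribosome-poor cells was not tested.

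Of the 15 genes highest in Microglia2 against Microglia1, 14 were higher in its ribosome-poor than in its ribosome-rich cells. All 15 were also higher in Microglia2 when both subtypes were held to ribosome-rich cells, at log2 ratios from 0.64 to 2.29, with Ssh2 at 2.20 against 0.44 and Inpp5d at 3.95 against 1.01. The 15 lowest genes were all lower in ribosome-rich cells, at log2 ratios from -4.94 to -2.02. The cytokine and chemokine list summed to 229 in ribosome-rich Microglia2 and 611 in ribosome-rich Microglia1. Ccl2 was at 1.44 against 26.8, Ccl3 at 61.6 against 206 and Il1b at 9.34 against 58.3. Of the members that are neither cytokines nor chemokines, Cd83 was at 25.6 against 17.3 and Nfkbia at 24.9 against 18.4. Nfkbiz was at 4.39 against 4.02, Tnfaip3 at 0.41 against 0.33 and Icam1 at 5.42 against 7.73.

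Class II antigen presentation genes differed among the ribosome-rich cells. They summed to 30.4 UMIs per 10000 in shallow and 37.0 in middle cells, against 9.12 in deep cells, 2.66 in ribosome-poor cells and 19.97 in ribosome-rich Microglia1. Cd74 stood at 17.8 and 20.4 against 6.16 in deep cells, and RT1-Da and RT1-Ba, chains of the rat class II molecules, at 4.67 and 2.92 in shallow cells against 0.73 and 0.47 in deep cells. Nr4a1, an early response transcription factor, ran the other way, at 2.05 in shallow and 5.65 in deep cells. These class II sums came from few cells, and no test was made between ranges.

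The first comparison between treatments asked whether the subtype took another share of the tissue. Microglia2 made up 12.6%, 8.63%, 8.40% and 12.1% of cells in FT replicates 1, 2, 4 and 5, and 6.09%, 5.07%, 11%, 5.19% and 5.17% in Sham replicates 1 to 5. Sham 3 overlapped the FT range and the other 4 Sham replicates lay below it. The means were 10.4% ± 2.23 (SD, n = 4) and 6.5% ± 2.55 (SD, n = 5), a difference of 3.93 percentage points (two-sided exact permutation p = 0.0635). Without Sham 3 the difference was 5.05 (exact permutation p = 0.0286), and without Sham 3 and 4 it was 4.99 (exact permutation p = 0.0571). Each of these p-values is the smallest that its numbers of replicates allow. With ribosome-rich cells alone the difference was 3.17 (exact permutation p = 0.206), and with the first-named reaction of each replicate alone 2.12 (exact permutation p = 0.397). Of all microglial cells, Microglia2 made up 55.0% ± 12.4 in FT and 43.4% ± 13.1 in Sham, a difference of 11.6 percentage points (exact permutation p = 0.238).

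The depth of a Microglia2 cell did not differ beyond the spread between replicates. Replicate medians averaged 2590 ± 1233 UMIs in FT and 2268 ± 1376 in Sham, ranges that overlapped (exact permutation p = 0.667, adjusted over 5 per-cell measures 0.952). Ribosomal protein genes took 8.19% ± 1.13 of UMIs in FT and 5.28% ± 4.25 in Sham, with Sham 3 and 4 lowest (exact permutation p = 0.286). Nuclear genes of oxidative phosphorylation, the mitochondrial respiratory chain, took 1.32%, 0.810%, 0.810% and 0.909% in FT, and 0.803%, 0.730%, 0.510%, 0.427% and 0.735% in Sham. The groups did not overlap, although FT 2 and FT 4 lay close to Sham 1. The means were 0.963% ± 0.244 and 0.641% ± 0.163 (exact permutation p = 0.0159, the smallest that 4 against 5 replicates allow; adjusted p = 0.0794). The difference was 0.322 percentage points, and 0.202 without FT 1, the highest replicate (exact permutation p = 0.0357, adjusted p = 0.179). In ribosome-rich cells the difference was 0.244 percentage points (exact permutation p = 0.171), and without Sham 3 and 4 it was 0.207 (exact permutation p = 0.0571). The unadjusted p-values without FT 1 and without Sham 3 and 4 were also the smallest that their numbers of replicates allow. With 5 measures, a single measure at such a p cannot reach an adjusted p under 0.05. The study had scored this pathway in this subtype, so its direction here is not independent evidence.

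**Figure D4:**
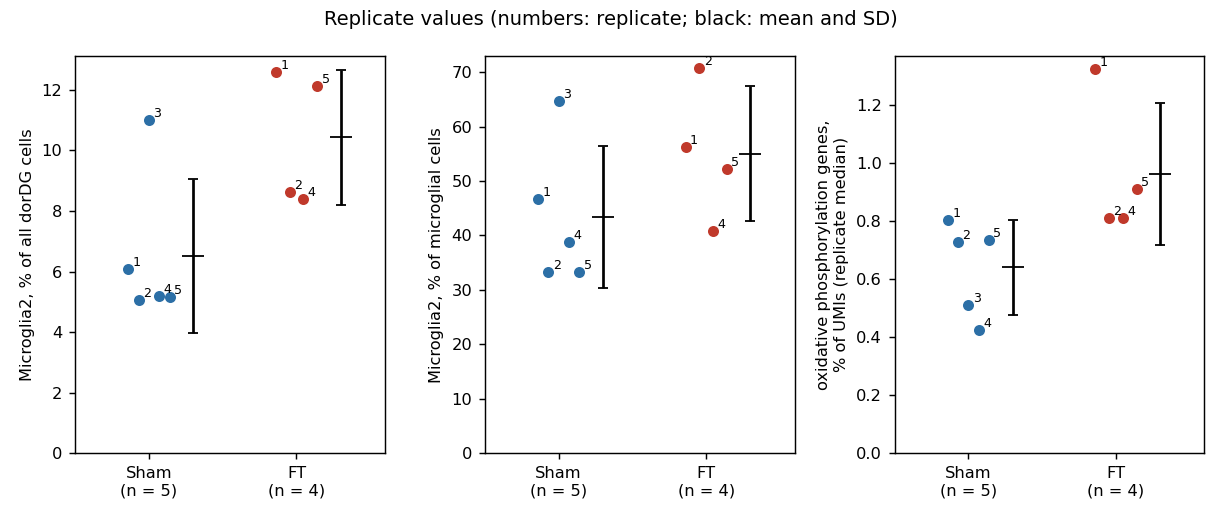
Replicate values of Sham (blue, n = 5) and FT (red, n = 4), numbered by replicate, with mean and SD in black, for Microglia2 as a percent of all dorDG cells, as a percent of microglial cells, and for oxidative phosphorylation genes as a percent of UMIs. Sham 3 lies among the FT replicates at 11% of all cells, and the lowest FT value of oxidative phosphorylation, 0.810%, lies just above the highest Sham value, 0.803%.

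Expression was compared on UMIs summed over the Microglia2 cells of a replicate, with the edgeR quasi-likelihood test over 3441 genes. Of these, 2 genes (0.0581%) were called at the study's fold limit with an adjusted p (Benjamini-Hochberg) up to 0.2, and both were higher in FT. At an unadjusted p under 0.05 stood 140 genes (4.07%), 86 higher (2.5% of all tested) and 54 lower in FT. This split moved with the scaling of the libraries: higher were 35 of 165 genes with library totals, 47 of 150 with RLE factors and 24 of 89 with DESeq2, and the median log2 fold change of all genes was 0.11 here and -0.21 with library totals. List values are therefore set against that median. The replicates of the 2 groups did not overlap for 64 genes (1.86%), of which 30 were higher in FT (0.872%). At single genes the subtype thus showed few differences beyond the spread between replicates.

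Neither called gene rose across the FT replicates. Ttr, the transthyretin gene and the main product of choroid plexus epithelium, was at 0.00, 0.00, 18.5 and 0.64 UMIs per 10000 in FT and at 0.00, 0.00, 0.00, 4.72 and 0.00 in Sham. FT 4 was far above all others and the groups overlapped. The fitted log2 fold change was 3.43 (SE 0.77, edgeR adjusted p = 0.0241). In FT 4, 71 UMIs were spread over 11 of 11 Microglia2 cells. The same replicates were high outside the subtype: in Microglia1 Ttr was at 17.8 in FT 4, 1.04 in FT 5 and 6.05 in Sham 4, and in all cells but Microglia2 at 22.0, 1.01 and 5.82. Of the 9 choroid plexus and ependymal markers in the table, 6 had 0 UMIs in Microglia2. Without FT 4 the log2 fold change of Ttr was -1.36.

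Catsperg1, a subunit of the sperm calcium channel, was at 0.00, 0.20, 0.00 and 8.99 UMIs per 10000 in FT and at 0.21 in Sham 1 and 0.00 in the other 4 Sham replicates. The groups overlapped. Of its 30 UMIs, 28 came from 1 cell of FT 5. The fitted log2 fold change was 4.27 (SE 0.98, edgeR adjusted p = 0.0241).

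**Figure D5:**
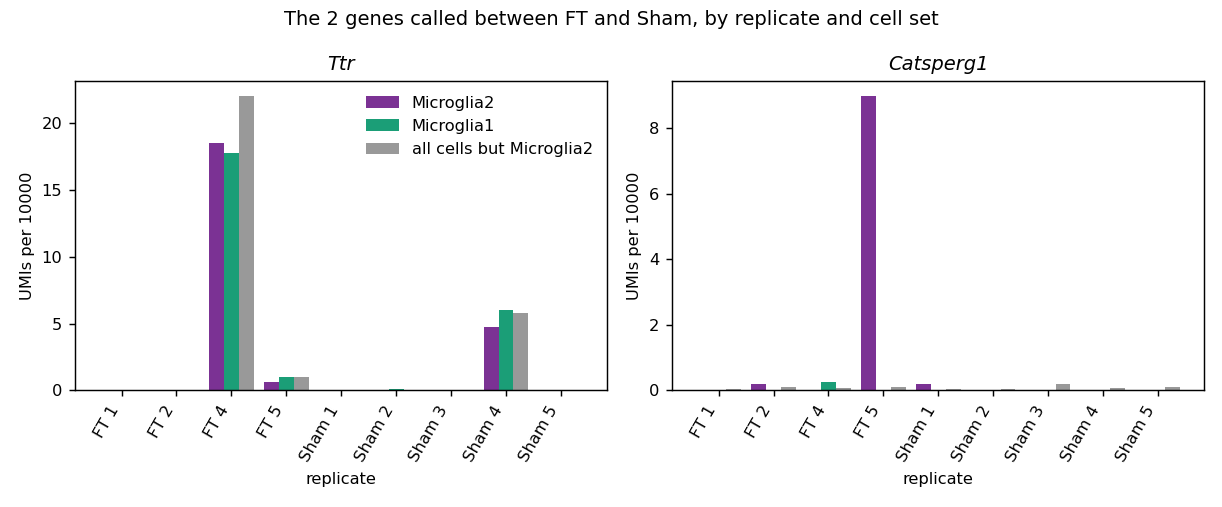
Levels of Ttr and Catsperg1 (UMIs per 10000) in each of the 9 replicates, for Microglia2 (purple), Microglia1 (green) and all cells but Microglia2 (grey). Ttr is high in FT 4 in all 3 cell sets, and Catsperg1 stands at 8.99 in Microglia2 of FT 5 with all other bars near 0.

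Of the 3441 tested genes, 31 passed an unadjusted p under 0.05 with groups apart, 18 of them higher and 13 lower in FT. None of these passed adjustment (edgeR adjusted p = 0.967 for each gene named here). Among the 10 highest, Lamtor5, a subunit of the lysosomal Ragulator complex, was at 1.46, 0.98, 0.52 and 1.61 UMIs per 10000 in FT and at 0.41 in Sham 1 and 0.00 in the other Sham replicates. Its log2 fold change was 2.85 (SE 0.92). Gm2a, the activator protein of lysosomal ganglioside breakdown, was at 1.62 ± 0.64 in FT and 0.35 ± 0.39 in Sham. Lamp1, a lysosomal membrane protein, was at 2.44, 3.53, 2.87 and 2.25 in FT and at 0.41, 0.87, 0.79, 1.89 and 1.65 in Sham. The other 7 were Trmt112, Sumo2, Sec11a, Arpc3, the complex I subunits Ndufa11 and Ndufa1, and the peroxidase Prdx2. Without Sham 3 and 4, all 10 stayed higher in FT and 7 kept an unadjusted p under 0.05. Ndufa11, Ndufa1 and Prdx2 did not (edgeR unadjusted p = 0.115, 0.0991 and 0.126). In ribosome-rich cells these 3 also missed it (edgeR unadjusted p = 0.0863, 0.0756 and 0.146).

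The 10 lowest were Patl1, Iqgap2, Ccdc174, Agtpbp1, Spata5, Rxra, Brwd1, Helz, Adcy8 and Tmcc3, with 12 to 29 UMIs each in all 9 replicates. Patl1, an mRNA decay factor, was at 0.24 in FT 1 and 0.00 in the other FT replicates, and at 1.03, 0.43, 3.14, 1.89 and 0.41 in Sham. Agtpbp1, a tubulin-trimming enzyme, was at 6.29 in Sham 3, 1.89 in Sham 4 and at most 0.62 in all other replicates. Ribosome-poor cells supplied 57 of the UMIs of these 10 genes. Without Sham 3 and 4, 3 of the 10 (Helz, Adcy8 and Tmcc3) still passed the filter on low levels.

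The microglial markers ran higher in FT without passing the test. C1qb was at 39.9, 33.1, 42.8 and 40.1 UMIs per 10000 in FT and at 24.2, 17.4, 15.7, 47.2 and 38.4 in Sham (log2 fold change 0.82, SE 0.61, edgeR adjusted p = 0.967). Sham 4 was above every FT replicate. Aif1 and Csf1r had log2 fold changes of 0.86 (SE 0.62) and 0.83 (SE 0.62, both edgeR adjusted p = 0.967). Of 22 tested microglial markers 19 had a positive and 3 a negative value, with a median of 0.81 and 0 at an unadjusted p under 0.05, beside a median of 0.11 over all 3441 genes. Their sum ran from 272 to 337 in FT and from 156 to 314 in Sham. Of the 22, 18 lay above the median of all genes. Their own median lay 0.70 above it, 0.69 above it with library totals, 0.55 in ribosome-rich cells and 0.50 without Sham 3 and 4.

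Other lists are given in the same way, as counts and medians with no test of the list. Of 20 lysosomal and phagocytic genes, 19 had a positive value (median 0.79) and 18 lay above the median of all genes. Here 2 passed an unadjusted p under 0.05, Lamp1 and Npc2, and 4 had groups apart, the others being Cst3 and Ctsz. Over all 3441 tested genes, 4.07% passed that p and 1.86% had groups apart, 0.872% with FT higher. Npc2, which carries cholesterol out of the lysosome, was at 43.8, 43.7, 48.5 and 44.0 in FT and at 28.3, 20.4, 7.86, 33.0 and 25.2 in Sham (log2 fold change 1.27, SE 0.61). The sum over the list ran from 856 to 1067 in FT and from 288 to 851 in Sham. Most of this sum was Cst3, and it was lower in ribosome-poor cells. There the list summed to 343, of which Cst3 gave 185, against 928 and 655 in ribosome-rich cells. The median of the 20 genes lay 0.68 above that of all genes. It lay 0.53 above it in ribosome-rich cells and 0.56 without Sham 3 and 4. All 5 class II genes tested were positive (median 1.47), and 2, RT1-Db1 and RT1-Ba, passed an unadjusted p under 0.05, but the groups overlapped for each. The median of the 5 lay 1.36 above that of all genes. It lay 1.11 above it in ribosome-rich cells and 1.10 without Sham 3 and 4. RT1-Db1 was at 0.49, 0.00, 4.69 and 2.25 in FT and at 0.83, 1.31, 0.00, 0.00 and 0.00 in Sham, so that FT 4 and FT 5 were high and FT 2 was not.

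Genes of the cytokine and chemokine list had no common direction. Of 18 tested, 12 were positive and 6 negative (median 0.27), and the median turned to -0.13 in ribosome-rich cells. Their sum was 212 ± 55.3 in FT and 211 ± 152 in Sham. Ccl3 was at 36.4, 58.8, 46.4 and 70.0 in FT and at 48.6, 162, 0.79, 24.5 and 69.4 in Sham, with Sham 2 highest and Sham 3 lowest of all (log2 fold change -0.06, SE 0.60). Cxcl1 and Il6 passed an unadjusted p under 0.05 with positive values, 2.15 (SE 0.64, edgeR adjusted p = 0.706) and 2.1 (SE 0.88, edgeR adjusted p = 0.967). Cxcl1 was at 9.39, 5.68, 0.26 and 1.61 in FT and at 3.10 and 1.89 in Sham 1 and Sham 4, the other Sham replicates being at 0.00. Immediate early and heat shock genes were positive for 6 of 16 (median -0.11), with Atf3 at 1.73 (SE 0.64) and Jun at -1.38 (SE 0.64), both without passing adjustment. The median of the 16 was -0.54 in ribosome-rich cells and -0.64 without Sham 3 and 4. Relative to the median of all genes it lay at -0.22, and at -0.58 and -0.61 in those 2 settings.

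Ribosomal protein genes had positive values for 86 of 89 tested (median 0.61), and 82 lay above the median of all genes. In ribosome-rich cells their median lay 0.12 above that of all genes. Of 58 oxidative phosphorylation genes 51 were positive (median 0.60), 47 lay above the median of all genes, 5 passed an unadjusted p under 0.05 and 4 had groups apart (Atp5e, Ndufa1, Ndufa11 and Ndufa13). Over all 3441 tested genes, 4.07% passed that p and 1.86% had groups apart. The median of the 58 lay 0.49 above that of all genes, 0.23 above it in ribosome-rich cells and 0.28 without Sham 3 and 4. Ndufa1 and Ndufa11 no longer passed an unadjusted p under 0.05 in either of these settings. Pooled over replicates, ribosome-poor cells were 13.8% of Microglia2 in FT and 33.3% in Sham. Of the 15 such cells in Sham, 12 came from Sham 3 and 4, and of the 8 in FT, 7 came from FT 2. The part of ribosome-poor cells in these list values was not tested beyond the settings given.

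The final question was whether the difference between FT and Sham in Microglia2 was unlike that in other cells. Tested as an interaction against Microglia1, 0 of 3125 genes (0%) were called by edgeR, with 105 (3.36%) at an unadjusted p under 0.05, and 0 by DESeq2, with 67. Against all other dorDG cells, 0 of 3952 genes (0%) were called by edgeR, with 159 (4.02%) at an unadjusted p under 0.05, and 0 by DESeq2, with 103. For Ttr the difference against all other cells was 0.48 on the log2 scale (SE 1.08, edgeR adjusted p = 1). No gene is therefore reported as changed in this subtype and not elsewhere.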

How the data were processed

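The authors deposited raw dorDG UMI counts by gene and cell, made from droplet 3′ libraries with Cell Ranger, and a table of other per-cell information with the cell type names; the submitters' processing notes name Seurat 3 and rn5. The study's methods keep cells of at least 1000 genes, whereas the deposited cells go lower. Groups came from the labels, and all reactions of a label replicate were summed. No cells were removed and no doublet caller was run. The members, marker lists and tests were chosen with earlier results of these data known.

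Levels are UMIs per 10000. Microglia2 was compared with other types without a test. FT and Sham were compared with edgeR 4.0.16 (R 4.3.3; quasi-likelihood F-test, TMM normalization) on counts summed over replicates with at least 5 Microglia2 cells, for genes averaging 0.5 or more UMIs per 10000, with calls made at the study's limits (adjusted p up to 0.2 after Benjamini-Hochberg, fold of 1.25 or more). DESeq2 1.42.0 and limma 3.58.1 were alternatives. Interactions had the replicate as a block. Shares and per-cell medians were tested by two-sided exact permutation of 1 value per replicate (scipy 1.17.1). The code was tested on simulated data.

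Named genes were the list members, the 15 highest and 15 lowest log2 ratios of Microglia2 over Microglia1 (0.1 added, a UMI in at least 25% of cells of the higher subtype), the 15 highest over the other 10 types, every called gene, and the 10 highest and 10 lowest fold changes among genes with an unadjusted p under 0.05 and groups apart, leaving out unnamed loci (1 among the 31 genes that qualified). One gene among the 15 highest is not reported here. Lists include 120 ribosomal protein and 82 oxidative phosphorylation genes. The 2% ribosomal limit, the depth limits, the levels of the 15 highest genes without Sham 3 and the results without Sham 3 and 4 were chosen after seeing the data. The 16 pairs of replicates within groups all differed beyond sampling noise. Promoter letters were from RefSeq (GRCr8); 39 of 51 named genes matched.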

Additional observations from a re-analysis of the deposited data

Results flagged for a closer look

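Outlying replicates were looked for in 68 sets of 4 or 5 replicate values, and 10 were flagged by Dixon's criterion, which chance alone flags in about 1 of 20 groups. Among shares, Sham 3 stood apart with Microglia2 at 11% of its cells, compared with 5.07% to 6.09% in the other 4 Sham replicates. Of the called genes, Catsperg1 stood at 8.99 UMIs per 10000 in FT 5 and at 0.207 in Sham 1, where the other Sham replicates had 0. Ttr stood at 18.5 in FT 4 and at 4.72 in Sham 4. The remaining flags were single replicates of genes with few UMIs. Lamtor5 stood at 0.414 in Sham 1, Patl1 at 0.244 in FT 1 and Ccdc174 at 0.244 in FT 1, with 0 in the other replicates of their groups. Agtpbp1 stood at 6.29 and Rxra at 3.93 in Sham 3, above 0.41 to 1.89 and 0.41 to 0.94 in the other Sham replicates.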

How the results depend on the processing

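The count of 2 called genes depended on the settings. It was 0 with DESeq2 (89 genes at an unadjusted p under 0.05), limma (145), replicates of at least 10 cells (130), ribosome-rich cells (137) or without Sham 3 and 4 (137), and 3 with RLE factors, library totals or first-named reactions alone. Library totals gave 2 genes up and 1 down (Btbd11). With no filter on low counts or an adjusted p of at most 0.05 it stayed at 2. DESeq2's outlier filter gave no p for Ttr or Catsperg1. Leaving out single replicates gave 0 (without Sham 2 or Sham 3) to 3 (without Sham 5) calls, and 1 without FT 5 or Sham 4. The count of the interaction against all other cells ran from 0 to 1 (Hes1, without FT 1), and against Microglia1 it was 0 throughout. The log2 fold change of Ttr was -1.36 without FT 4 and 7.22 without Sham 4. Whether replicate numbers pair the droplet samples is open: the study's methods state parallel processing of corresponding Sham and FT samples where they describe the tissue of the bulk libraries. Deviations of same-numbered replicates correlated at 0.197, -0.0665, 0.0453 and -0.0191. The fit with the replicate block called 0 genes (108 at an unadjusted p under 0.05). Over the 4 same-numbered pairs, FT was higher in 4 of 4 for Microglia2 among all cells (5.05 percentage points), among microglial cells (16.9) and for oxidative phosphorylation (0.289), with an exact sign-flip p = 0.125 for each, the smallest that 4 pairs allow. The median log2 fold change of all genes was 0.11, and -0.21 with library totals.

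For shares, the difference in Microglia2 among all cells was 5.05 percentage points without Sham 3 (range 3.21 to 5.05 over single replicates left out), 2.12 with first-named reactions, and among microglial cells 18.7 in ribosome-rich cells (exact permutation p = 0.0476; 6.34 to 16.9 with single replicates left out). The differences in UMIs, genes and mitochondrial share per cell, which missed the threshold, changed sign, whereas the ribosomal share differed by 2.90 percentage points, by 0.342 in ribosome-rich cells, by 0.165 without Sham 3 and 4, and by 1.87 to 4.29 with single replicates left out. UMIs per cell differed by -468 in ribosome-rich cells, -487 without Sham 3 and 4, and -206 to 804 with single replicates left out. Genes per cell differed by -258 and -220 in those settings, by -67.9 with the replicate block, and by -127 to 247. The mitochondrial share differed by -0.920 and -0.669 percentage points, by -0.0495 in first-named reactions and -0.218 with the replicate block, and by -0.408 to 0.646. The causes were not tested. Leaving out cells with 3 or more markers of another type left 1 replicate with at least 5 cells and could not be fitted, and a minimum of 1 cell gave the same replicates. With 10603 to 81967 UMIs per replicate, a gene at the filter of 0.5 UMIs per 10000 rests on few UMIs (median 28 over all replicates for the tested genes).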
